A study of Canis lupus familiaris with 2 samples.

Results

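The genes described are those of the EGF receptor (ERBB) family in MDCK cells, with their ligands and a feedback inhibitor. The members were the rows of both FPKM tables whose gene symbol was EGFR, ERBB2, ERBB3, AREG, EREG, HBEGF, TGFA, BTC, EPGN or ERRFI1. Of these 10 symbols, 8 were found among the 23510 features listed, and AREG and BTC were not analysed here. MDCK is an established canine kidney line whose cells form a columnar epithelial sheet. The study had 2 samples, 1 culture under 2-cm-high medium (here "at 2 cm") and 1 under 50-cm-high medium ("at 50 cm"), the labels giving 2 and 50 cmH2O as the respective pressure. Both were plated on a semipermeable membrane in EMEM with serum and grown for 3 days, the pressure device being used from the day after plating, and RNA was sequenced from each. The labels name no genetic change and no drug in either culture. With 1 culture per group, no value has a replicate and no difference could be tested or set against replicate error. The question put to the data was how the level of each family gene compared between the pressure-loaded and the control culture.

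ERBB receptors are tyrosine kinases that pair at the plasma membrane after ligand binding and then signal through the RAS-ERK and PI3K-AKT routes to growth, survival and migration. EGFR binds EGF, TGFA, AREG, EREG, HBEGF, BTC and EPGN, ERBB3 binds neuregulins but is a weak kinase that depends on a partner, and ERBB2 has no known soluble ligand and serves as that partner. The ligands are made as membrane proteins and released by metalloproteases such as ADAM17, and in polarized epithelia such as the kidney tubule the receptors lie mainly on the basolateral side. ERRFI1, also known as MIG6, binds the receptor kinases and blocks them, and is itself induced by growth factor signalling.

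Levels are given in FPKM, in which the fragments on a gene are divided by its exon length and by the size of the library, so that levels of different genes can be set side by side. The number of reads per library was not given. Of 574 features with values under 0.1 FPKM, but not 0, in each culture, 210 shared a ratio of 1.0977, which puts the FPKM value of a single read 9.77% higher at 50 cm. Markers of epithelium were abundant, with KRT18 at 1384 FPKM at 2 cm and 1306 FPKM at 50 cm, and the kidney factor PAX8 had 65.1 and 57.6 FPKM, respectively. The kidney cadherin CDH16 was low, at 1.96 and 0.676 FPKM. Of the 6 mesenchymal markers, VIM had 1802 and 2380 FPKM and the other 5 were each at or below 0.247 FPKM, COL3A1 being listed at 0 in both cultures. The 5 leukocyte and endothelial markers in the tables summed to 0.458 and 0.268 FPKM, and the leukocyte markers PTPRC and CD3E were listed at 0 in both.

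By the deposited values all 3 receptor genes were lower at 50 cm, EGFR by so little that quantile normalization of the cultures turned its direction, and the order of ERBB3 and ERBB2 was exchanged. ERBB3, the neuregulin receptor, had 44.4 FPKM at 2 cm and 26.5 FPKM at 50 cm. ERBB2, its signalling partner, had 39.9 FPKM at 2 cm and 31.6 FPKM at 50 cm. EGFR had 7.82 FPKM at 2 cm and 7.73 FPKM at 50 cm. Among these 3 receptors, ERBB3 was thus the highest in the control culture and ERBB2 the highest under pressure, whereas EGFR was lowest in both. In bulk RNA, fewer cells expressing a gene and less RNA per cell cannot be told apart. The ratios of 50-cm over 2-cm FPKM were 0.596 for ERBB3, 0.791 for ERBB2 and 0.988 for EGFR, or -0.75, -0.34 and -0.02 on the log2 scale. After quantile normalization the log2 ratio of EGFR was 0.03. The level of ERBB3 exceeded that of 84.8% of the features above 0 FPKM at 2 cm and of 74.0% at 50 cm, whereas EGFR exceeded 47.6% and 47.3%, respectively.

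**Figure D1:**
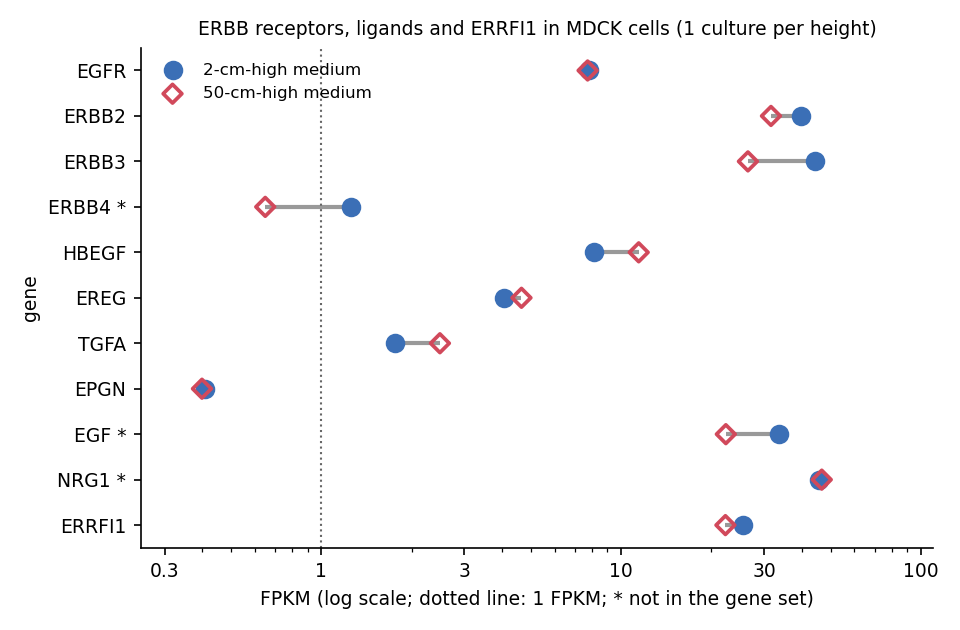
FPKM on a log axis for each gene at 2 cm (filled circles) and at 50 cm (open diamonds), 1 culture per height and no error bars; asterisks mark ERBB4, EGF and NRG1, which are family genes outside the set. ERBB3 shows the widest gap among the receptors of the set (44.4 against 26.5 FPKM), the EGFR symbols lie on each other (7.82 and 7.73 FPKM), and EPGN lies below 1 FPKM in both cultures.

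The difference in ERBB3 was the largest among the members. Of the 11057 features above 1 FPKM in both cultures, 2.83% had a ratio as low as that of ERBB3 or lower, and 12.5% had a ratio as low as that of ERBB2 or lower. EGFR lay near the middle, with 44.4% of features at or below its ratio. Ratios between genes of 1 library do not depend on a single scale factor for that library, although quantile normalization alters them. ERBB3 stood at 1.11 times the FPKM of ERBB2 at 2 cm and at 0.838 times at 50 cm. Against EGFR, ERBB3 stood at 5.68 times at 2 cm and at 3.43 times at 50 cm. The summed FPKM of the 3 receptor genes was 92.2 at 2 cm and 65.8 at 50 cm. Within that sum, the share of ERBB3 was 48.2% at 2 cm and 40.2% at 50 cm, and the share of EGFR was 8.49% and 11.7%, respectively.

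Of the 4 measured EGFR ligands of the set, the 3 above 1 FPKM in both cultures were higher at 50 cm, whereas EGF, outside the set, was lower. HBEGF, the heparin-binding ligand, which binds EGFR and ERBB4, had 8.10 FPKM at 2 cm and 11.4 FPKM at 50 cm. TGFA, a ligand of EGFR made by many epithelia, had 1.76 FPKM at 2 cm and 2.49 FPKM at 50 cm. EREG, or epiregulin, had 4.05 FPKM at 2 cm and 4.65 FPKM at 50 cm. The ratios of 50-cm over 2-cm FPKM were 1.41 for HBEGF, 1.42 for TGFA and 1.15 for EREG, or 0.50, 0.50 and 0.20 on the log2 scale. By the deposited values HBEGF and TGFA had nearly the same ratio, though after quantile normalization their log2 ratios were 0.53 and 0.71. The deposited FPKM of HBEGF was 4.61 times that of TGFA at 2 cm and 4.60 times at 50 cm. EPGN, or epigen, had 0.410 FPKM at 2 cm and 0.3997 FPKM at 50 cm, below the minimum set for a comparison. On the protein-coding gene map of the RefSeq dog assembly UU_Cfam_GSD_1.0, EPGN, EREG and AREG follow each other directly. EREG stood at 9.89 times the FPKM of its neighbour EPGN at 2 cm and at 11.6 times at 50 cm.

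The order of the 4 measured EGFR ligands of the set was the same in both cultures, HBEGF before EREG, TGFA and EPGN. HBEGF made up 56.6% of their summed FPKM at 2 cm and 60.3% at 50 cm, and the sum itself was 14.3 and 18.98 FPKM, respectively. HBEGF stood at 1.04 times the FPKM of EGFR at 2 cm and at 1.48 times at 50 cm, so that the ligand transcript went from about level with the receptor transcript to above it. Among all 11057 features, 3.59% had a ratio as high as that of HBEGF or higher, and 3.53% as high as that of TGFA or higher. For EREG this share was 21.3%.

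**Figure D2:**
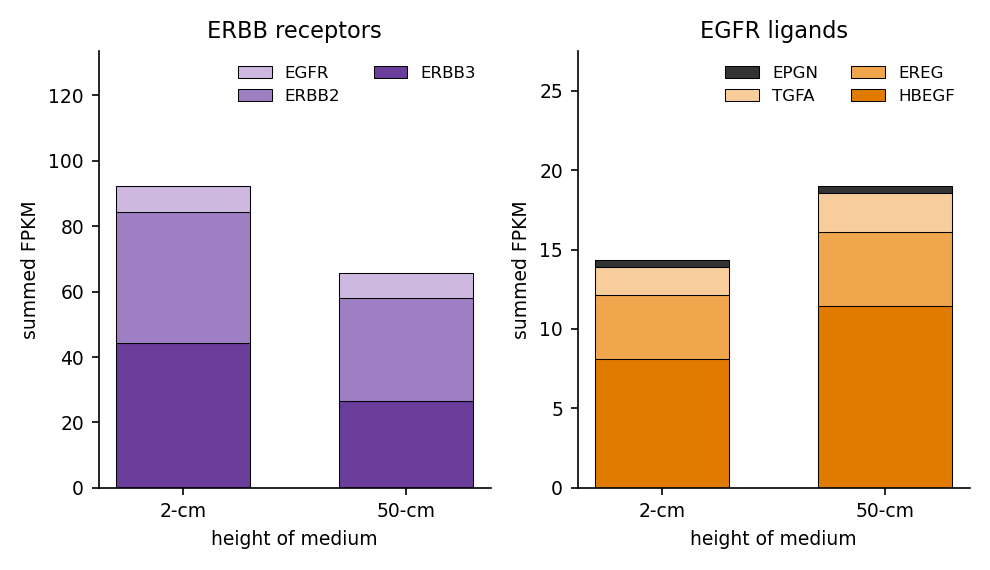
Stacked bars of FPKM summed over the 3 receptor genes (left) and over the 4 measured EGFR ligand genes of the set (right) for the culture at 2 cm and the culture at 50 cm; each axis starts at 0 and no error bars exist. The receptor bar stands at 92.2 and 65.8 FPKM and the ligand bar at 14.3 and 18.98 FPKM.

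Reads limit the low ligands. EPGN had a ratio that 9 reads at 2 cm and 8 reads at 50 cm give to within 0.001%, and TGFA a ratio that 38 and 49 reads give. For EREG the smallest such numbers were 22 and 23 reads. Equal multiples of these reads give the same ratios, so the true numbers may be larger. Such a match to whole reads was shown by 64.8% of the features with a mean of up to 1 FPKM. Among those with a mean of 1 to 5 FPKM the share was 28.3%. At the smallest numbers the exact (Clopper-Pearson) 95% interval of the 50-cm over 2-cm ratio, which covers counting error only, ran from 0.908 to 2.22 for TGFA, from 0.611 to 2.16 for EREG and from 0.328 to 2.85 for EPGN. The intervals would be narrower at any multiple. No pair of whole numbers up to 50 gave the ratio of HBEGF, ERRFI1, EGFR, ERBB2 or ERBB3.

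ERRFI1, the inhibitor of the receptor kinases, was somewhat lower at 50 cm. It had 25.5 FPKM at 2 cm and 22.3 FPKM at 50 cm, which is a ratio of 0.874 and a log2 ratio of -0.19, and 22.3% of features had a ratio as low or lower. Its FPKM was 3.26 times that of EGFR at 2 cm and 2.88 times at 50 cm. Against ERBB2 it stood at 0.638 times at 2 cm and at 0.705 times at 50 cm.

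From the highest to the lowest level, the 8 members found ran ERBB3, ERBB2, ERRFI1, HBEGF, EGFR, EREG, TGFA and EPGN at 2 cm, and at 50 cm only ERBB3 and ERBB2 changed places. With no replicates, neighbours in this order, such as HBEGF and EGFR at 2 cm, cannot be said to differ. Of the 8 members, 7 passed the minimum of 1 FPKM in both cultures, and none differed more than 2-fold. The methods of the study state the same minimum, but the count of changed genes that the study reports was not obtained with it here. Over all 11057 features, 0.389% were more than 2-fold higher and 1.28% more than 2-fold lower at 50 cm. At 1.5-fold, 1 of the 7 members (ERBB3) was lower and none was higher, against 5.06% of all features lower and 2.13% higher. HBEGF and TGFA lay just inside 1.5-fold. The median log2 ratio of the 7 members was -0.02, and that of all features was 0.01. The medians of the roles lay on opposite sides of it, at -0.34 for the 3 receptors and 0.50 for the 3 ligands above the minimum. The ligand median depends on the choice of set, since EGF and NRG1, outside it, had log2 ratios of -0.59 and 0.03. Ratios spread more widely and lay lower at low levels. Among the 2080 features with a mean of 1 to 5 FPKM, which include TGFA and EREG, 14.9% were more than 1.5-fold lower and 3.75% more than 1.5-fold higher, with a median log2 ratio of -0.15. Among the 4217 features with a mean of 5 to 20 FPKM, which include HBEGF and EGFR, 3.98% were more than 1.5-fold lower. In that range 2.09% were more than 1.5-fold higher, and the median log2 ratio was -0.01. Among the 4760 features above 20 FPKM, which include ERBB2, ERBB3 and ERRFI1, 1.72% were more than 1.5-fold lower and 1.47% higher, with a median of 0.06.

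**Figure D3:**
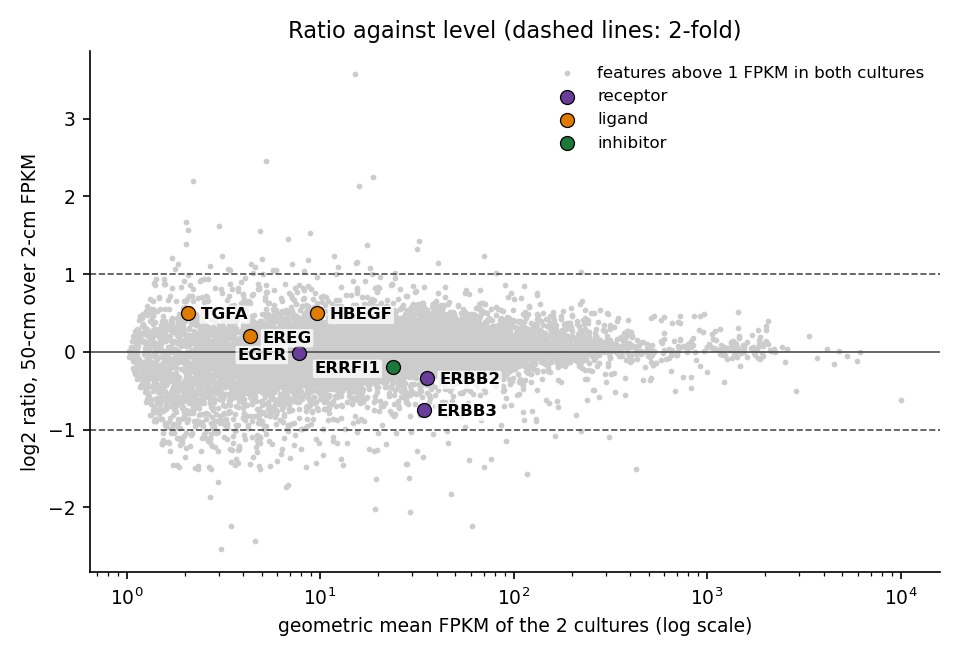
Log2 ratio of 50-cm over 2-cm FPKM against the geometric mean FPKM (log axis) for the 11057 features above 1 FPKM in both cultures (grey) and the 7 members among them (coloured by role); dashed lines mark 2-fold. The ligands lie at 0.20 to 0.50, the receptors at -0.75 to -0.02 (EGFR, which lies at 0.03 after quantile normalization) and ERRFI1 at -0.19, all inside the dashed lines.

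The family genes outside the set included the most abundant ligands. NRG1, the neuregulin that binds ERBB3 and ERBB4, had 45.6 FPKM at 2 cm and 46.7 FPKM at 50 cm. Its level was 1.03 times that of ERBB3 in the control culture and 1.76 times under pressure. EGF had 33.6 FPKM at 2 cm and 22.3 FPKM at 50 cm, a ratio of 0.665, and 5.00% of features had a ratio as low or lower. EGF thus differed in the opposite direction to HBEGF and TGFA, and its FPKM was 4.14 times that of HBEGF at 2 cm and 1.95 times at 50 cm. When EGF and NRG1 were added to the 4 ligands, HBEGF made up 8.67% of the sum at 2 cm and 13.004% at 50 cm. The sum of these 6 ligands was lower at 50 cm, at 93.5 FPKM at 2 cm and 87.99 FPKM at 50 cm, whereas that of the 4 was higher. ERBB4 had 1.26 FPKM at 2 cm and 0.650 FPKM at 50 cm, a ratio that 17 and 8 reads give, and was not above the minimum in both. NRG2, NRG3 and NRG4 were listed at 0 in both cultures. INSR, the insulin receptor gene, was listed at 0 as well, and a listed 0 was not taken as absence of the RNA.

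The genes that release the ligands or control that release went both ways. Of 10 listed genes, 8 were above 1 FPKM in both cultures, 4 higher and 4 lower at 50 cm, and none passed 1.5-fold, which 2.13% of all features did upward and 5.06% downward. The 4 lower were the proteases ADAM9, ADAM10, ADAM15 and ADAM17, with log2 ratios of -0.09 to -0.01. The 4 higher were the protease partners RHBDF1, RHBDF2 and FRMD8, with log2 ratios of 0.08 to 0.18, and the inhibitor TIMP3. Apart from TIMP3, all of these ratios were smaller in size than the standard deviation over all features, 0.33. On the scale of reads, on which each 50-cm value is divided by the 1.0977 above, 2 of the 8 were higher and 6 lower. Their median log2 ratio on that scale was -0.10, and that of all features was -0.12. ADAM17, the main protease for HBEGF, TGFA and EREG, had 44.0 FPKM at 2 cm and 43.6 FPKM at 50 cm. ADAM15 was lowest of the list, with a log2 ratio of -0.09. The highest was TIMP3, a secreted inhibitor of ADAM17, with 66.8 and 99.5 FPKM and a log2 ratio of 0.57, and 2.22% of features had a ratio as high or higher. HBEGF therefore stood higher relative to its protease, ADAM17 having 5.43 times the FPKM of HBEGF at 2 cm and 3.81 times at 50 cm.

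The signalling lists downstream of the receptors went both ways. Of the 18 adaptor and RAS-ERK genes, 12 were higher and 6 lower at 50 cm, with a median log2 ratio of 0.06, beside 52.6% higher and a median of 0.01 over all features. The split depended on the scaling, with 9 higher and 9 lower under upper quartile scaling and quantile normalization, and 6 higher and 12 lower (median -0.08) on the scale of reads, where the median over all features was -0.12. None passed 2-fold and 1, HRAS, passed 1.5-fold upward, as 2.13% of all features did. The highest ratio was that of HRAS, with 30.8 and 47.2 FPKM at 2 and 50 cm, and the lowest that of the scaffold KSR1, with 4.71 and 3.43 FPKM. Of the 12 tested genes of the PI3K, phospholipase C gamma, STAT and SRC arms, 4 were higher and 8 lower, with a median of -0.10, from PIK3R1 at -0.47 to PLCG1 at 0.25. Of the 18 genes that downregulate the receptors, 8 were higher and 10 lower, with a median of -0.07. This split was 9 and 9 after quantile normalization, 6 and 12 under upper quartile scaling and 4 and 14 (median -0.20) on the scale of reads. Upper quartile scaling and the scale of reads also lowered the median over all features, to -0.05 and -0.12, respectively. The log2 ratios of the 18 genes ran from the ubiquitin ligase CBLB at -0.56 to the sorting adaptor STAM at 0.32. LRIG1, a membrane protein that lowers ERBB receptor levels, had 7.19 FPKM at 2 cm and 8.26 FPKM at 50 cm. Its relatives were lower at 50 cm, LRIG2 with 7.11 and 5.09 FPKM and LRIG3 with 23.3 and 17.0 FPKM.

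Genes that growth factors are known to induce ran mostly higher under pressure. Their list was chosen with earlier results of these data known, so the split is a description and not a test. Of 30 listed, 26 were above 1 FPKM in both cultures, and 21 of them were higher and 5 lower at 50 cm, with a median log2 ratio of 0.18, beside the same 52.6% and 0.01 over all features. Under the other scalings 16 to 20 of the 26 were higher, with medians of 0.05 to 0.22, beside medians of -0.12 to 0.01 over all features. Of the 26, 3 were more than 2-fold higher at 50 cm and none more than 2-fold lower, against 0.389% and 1.28% of all features. PLAUR, the urokinase receptor, had 7.64 and 18.04 FPKM at 2 and 50 cm. CCND1, or cyclin D1, had 45.7 and 107 FPKM, and the AP-1 subunit FOSL1 had 10.4 and 22.8 FPKM. The ratio of PLAUR is one that 20 reads against 43 give, a match to whole reads that 5.81% of the features with a mean of 5 to 20 FPKM showed, so its number of reads is uncertain. The values went both ways, since the immediate-early factor EGR1 had 14.5 FPKM at 2 cm and 7.33 FPKM at 50 cm, a log2 ratio of -0.99, and the ERK phosphatase DUSP6 had 23.7 and 23.8 FPKM. These genes respond to many stimuli besides ERBB ligands. EREG, HBEGF and ERRFI1 belong to the growth factor induced class themselves, and had log2 ratios of 0.20, 0.50 and -0.19, respectively. A link between these ratios and growth factor signalling was not tested. Whether the receptors signalled more or less was not measured by these data.

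**Figure D4:**
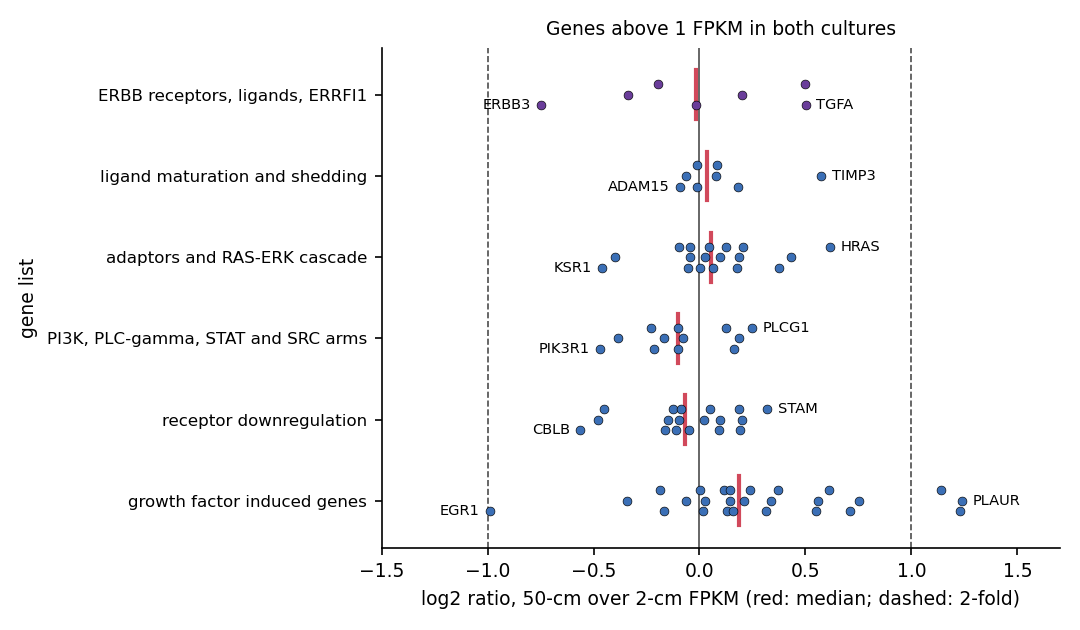
Log2 ratio of 50-cm over 2-cm FPKM for the genes above 1 FPKM in both cultures in each list (points, offset vertically only for legibility), with the list median in red and 2-fold as dashed lines; the lowest and highest gene of each list are named. The ERBB set runs from -0.75 (ERBB3) to 0.50 (TGFA), and only the growth factor induced list holds genes past 2-fold, all of them higher at 50 cm.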

How the data were processed

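RNA of MDCK cells grown at 2 cm (1 culture) was compared with RNA of cells grown at 50 cm (1 culture). Per the labels and the methods of the study, the FPKM values were deposited as Cuffnorm 2.2.1 gave them, after strand-specific library preparation from mRNA, single-end sequencing of 75 bases and mapping to the CanFam3.1 dog genome (TopHat 2.0.13, which ran Bowtie 2 version 2.2.3, and SAMtools 0.1.19). The annotation and library scaling are not given in the sources used here, and how reads were divided between similar genes is unknown. Ratios used the deposited FPKM with no pseudocount. A feature had to exceed 1 FPKM in both cultures, with limits of 2-fold and 1.5-fold. No test was possible. Read steps were sought as ratios of at most 50 reads per culture within 0.001%. The members and lists were chosen with earlier results of these data known. All members are named. From each wider list except the cell type markers, the genes past 2-fold or, where fewer than 2 passed, the most extreme are named. Others were added for context after their values were seen (LRIG1, LRIG2, LRIG3, ADAM9, ADAM10, ADAM17, RHBDF1, RHBDF2, FRMD8, DUSP6, EGR1, INSR, MET, ERBB4, NRG2, NRG3, NRG4, KRT18, PAX8, CDH16, VIM, COL3A1, PTPRC, CD3E). Scripts were tested on simulated data. Python 3.11.15, numpy 2.4.6, pandas 2.3.3, scipy 1.17.1 and matplotlib 3.10.9 were used. Protein and promoter comparisons planned for the members were not run, because no sequence was used here.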

Additional observations from a re-analysis of the deposited data

How the results depend on the processing

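No member passed 2-fold under any of the 10 alternatives. A change of minimum leaves the ratio of a gene as it is, and a pseudocount cannot turn its direction. Only the alternatives that rescale the cultures could have turned it. ERBB2, ERBB3 and ERRFI1 were lower and HBEGF, TGFA and EREG higher at 50 cm under every alternative that gave them a value, with log2 ratios of -0.88 to -0.73 for ERBB3 and 0.36 to 0.53 for HBEGF. EGFR was the exception, at 0.03 after quantile normalization. That normalization also put TGFA past 1.5-fold (0.71). The median of the members moved to -0.19 above 5 FPKM, which leaves out TGFA and EREG, and to -0.15 on a scale of reads, chosen after seeing the data, which lowers every log2 ratio by 0.134 and brought EREG to 0.06. Of all features, 185 differed more than 2-fold. This count was 92 with a pseudocount of 1, 62 above 5 FPKM, 384 above 1 FPKM in at least 1 culture, 730 above 0.1 FPKM and 1216 above 0 FPKM in both. The study reports a larger count at its stated minimum than was found here at that minimum. The reported count equals that found here at the next lower minimum tried. No paired analysis was possible because each group has 1 culture. At the smallest numbers of reads that fit, low reads limit EPGN, EREG, TGFA and ERBB4, though their true numbers are not known.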

Other observations

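Receptor tyrosine kinases outside the ERBB family, a list written after the ERBB values had been seen, gave 12 genes above 1 FPKM in both cultures of 25 listed. Of these, 3 were higher and 9 lower at 50 cm, with a median log2 ratio of -0.19, beside 52.6% higher and a median of 0.01 over all features. Under upper quartile scaling and on the scale of reads, 2 were higher and 10 lower. Over all features the medians under these scalings were -0.05 and -0.12, and the 52.6% holds for the deposited values only. None passed 1.5-fold, which 2.13% of all features did upward and 5.06% downward. MET, the receptor for hepatocyte growth factor, was the most abundant, with 146 FPKM at 2 cm and 183 FPKM at 50 cm. The lowest ratio was that of the collagen receptor DDR2 (-0.30) and the highest that of the VEGF receptor FLT1 (0.53), so ERBB3, at -0.75, lay below all 12. The difference between the lists was not tested.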
